A study of Homo sapiens with 12 samples.

Results

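The 9 genes described here encode the proteins that write N6-methyladenosine (m6A) into RNA. They were taken by symbol from the 17520 genes of an expression table and are METTL3, METTL14, WTAP, KIAA1429 (now named VIRMA), CBLL1, ZC3H13, RBM15, RBM15B and METTL16. The m6A sites inside their gene bodies on the gene strand were taken from the list of each condition, 113 of 63578 sites with insulin and Torin1 and 160 of 96671 sites with insulin. All 9 genes were found and passed the filter on low values. HEK293E, an established line that comes from human embryonic kidney, was deprived of serum overnight in every group. The insulin+Torin1 groups were pretreated with Torin1 at 250 nM, which inhibits the mTOR kinase, and then received 200 nM insulin for 30 h. The insulin groups received the same insulin and no Torin1, so every sample received insulin and there was no group without it. Each treatment had 3 input RNA-seq samples and 3 samples of miCLIP, a method that crosslinks an m6A antibody to RNA so that methylated adenosines are read out as substitutions.

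Most m6A in mRNA is made by a large complex. METTL3 is its catalytic methyltransferase and METTL14 its partner, which is needed for binding RNA. WTAP, a splicing-associated adaptor, links this pair to the scaffold VIRMA, the RING-finger protein CBLL1 (HAKAI) and the zinc-finger protein ZC3H13. The paralogues RBM15 and RBM15B bind RNA and bring the complex to its targets. METTL16 is a separate m6A methyltransferase that acts alone on U6 snRNA and on the MAT2A transcript. m6A is placed at the adenosine of a DRACH motif, often in long exons and near stop codons.

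Reads assigned to genes were estimated at 41.7, 11.1 and 8.22 M with Torin1 and 7.33, 9.11 and 11.8 M with insulin alone. The estimates come from a fit of the units per read to the low values in the table. In the first Torin1 library this was 0.274, so several read numbers share 1 value there. The deposited values are normalized units, not read counts, and summed to 11418114 to 11438881 with Torin1 and 12424643 to 12528454 with insulin. The labels call the replicates biological but do not say that they came from separate cultures, and p-values therefore cover only how far these samples differ from each other, a spread that may be technical. Of 6 genes known from HEK293 cells, 5 were in the table and 4 were tested. Of these, VIM, KRT8 and KRT18 rose and NEFM fell, and the list's summed level was 8619 to 8636 units with Torin1 and 3416 to 3484 with insulin. Most of that sum was VIM. Blood markers summed to 1 to 10 units with Torin1 and 105 to 121 with insulin. This was CD14, at 95, 85 and 86 units with insulin, and HBA1, at 26, 25 and 17. The blood markers PTPRC and CD3E stayed at 0 or 1 in every library of both treatments. Fibroblast and endothelial markers summed to 527 to 547 units with Torin1 and 188 to 238 with insulin, most of it COL1A1. Keratinocyte and hepatocyte markers stayed between 8 and 14 units in both treatments, and no marker present in the table was at 0 in all 6 libraries. These shifts move with the treatment, and their part in the results was not tested. In bulk RNA, fewer cells of a kind and less RNA per cell cannot be told apart.

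Torin1 was followed by unequal changes in the writer genes. RBM15 fell 3.01-fold and METTL14 fell 2.00-fold, METTL16, KIAA1429 and CBLL1 fell by smaller amounts, and WTAP and METTL3 rose. The fall of RBM15B and of ZC3H13 depended on how libraries were scaled, since both had a log2 fold change above 0 after quantile normalization. By limma with adjusted p under 0.05, 7 of the 9 genes were lower and 2 were higher, where 42.5% of the 13842 tested genes were lower and 43.4% were higher. Under the stricter limma test for a change beyond 1.5-fold, 2 of 9 were lower and 0 were higher, against 22.5% and 25.0% of all tested genes. The groups did not overlap for any of the 9 genes, nor for 86.3% of all tested genes. The median log2 fold change was -0.51 over the 9 genes and 0.02 over all tested genes. Calls in either direction were thus common in the whole table, and the shares beyond 1.5-fold were not above those of all tested genes. The share called lower was above that of all tested genes. Whether this is particular to the writer genes was not tested.

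The catalytic pair moved in opposite directions. METTL14 had 742, 738 and 727 normalized units with Torin1, against 1408, 1546 and 1463 with insulin. Every Torin1 library lay far below the lowest insulin library. The log2 fold change of METTL14 was -0.999 ± 0.046 (SE, n = 3 each), with a limma adjusted p of 1.7e-15 and of 1.9e-08 for a change beyond 1.5-fold. METTL3 had 1023, 1027 and 1089 units with Torin1, against 886, 870 and 845 with insulin. Every Torin1 library lay above every insulin library, by a much smaller margin than for METTL14. The log2 fold change of METTL3 was 0.27 ± 0.05, with a limma adjusted p of 1.2e-05 and of 1 for a change beyond 1.5-fold.

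Among the adaptors, WTAP rose. It had 1908, 1897 and 1868 units with Torin1, against 1354, 1333 and 1398 with insulin, a log2 fold change of 0.47 ± 0.04 with a limma adjusted p of 7.2e-11. The 3 libraries of each treatment lay close together and far from the others. WTAP was not called beyond 1.5-fold, with a limma adjusted p of 1, but passed that test after quantile normalization, with a log2 fold change of 0.74 and a limma adjusted p of 0.00078. The scaffold gene KIAA1429 had 1696, 1764 and 1644 units with Torin1, against 2604, 2711 and 2493 with insulin. Its groups were well apart, and its log2 fold change was -0.61 ± 0.04 with a limma adjusted p of 1.2e-12. The log2 fold change of KIAA1429 was -0.49 at equal totals and -0.32 after quantile normalization, with limma adjusted p of 2.1e-11 and 7.9e-08. CBLL1, whose RING finger is of the ubiquitin ligase type, had 713, 771 and 659 units with Torin1, against 1003, 1000 and 1038 with insulin. The Torin1 libraries of CBLL1 spread more than the insulin libraries, without overlap, and the log2 fold change was -0.51 ± 0.05 with a limma adjusted p of 8.5e-09. ZC3H13, which helps hold the complex in the nucleus, had 1234, 1197 and 1174 units with Torin1, against 1322, 1355 and 1328 with insulin. This was the smallest change of the 9 genes, with a log2 fold change of -0.15 ± 0.04 and a limma adjusted p of 0.0017. Scaled to equal totals it was -0.03 with a limma adjusted p of 0.55, and after quantile normalization 0.07 with a limma adjusted p of 0.14.

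The RNA-binding paralogues RBM15 and RBM15B differed in size of change. RBM15 had 534, 510 and 565 units with Torin1, against 1706, 1597 and 1551 with insulin. The Torin1 libraries lay close together and far below all insulin libraries. The log2 fold change was -1.59 ± 0.05, with a limma adjusted p of 1.8e-18 and of 1.5e-14 for a change beyond 1.5-fold, and 7.59% of tested genes had a lower one. RBM15B had 1445, 1376 and 1426 units with Torin1, against 1783, 1681 and 1542 with insulin. The groups were apart by less than the spread among the insulin libraries. The log2 fold change of RBM15B was -0.23 ± 0.05 with a limma adjusted p of 7.3e-05, and it was 0.02 with a limma adjusted p of 0.69 after quantile normalization. METTL16, the methyltransferase outside the complex, had 1000, 994 and 975 units with Torin1, against 1572, 1550 and 1518 with insulin. Both groups were tight and far apart, and the log2 fold change was -0.64 ± 0.04 with a limma adjusted p of 8.1e-13. Neither METTL16 nor KIAA1429 passed the 1.5-fold test, with limma adjusted p of 0.16 and 0.45.

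**Figure D1:**
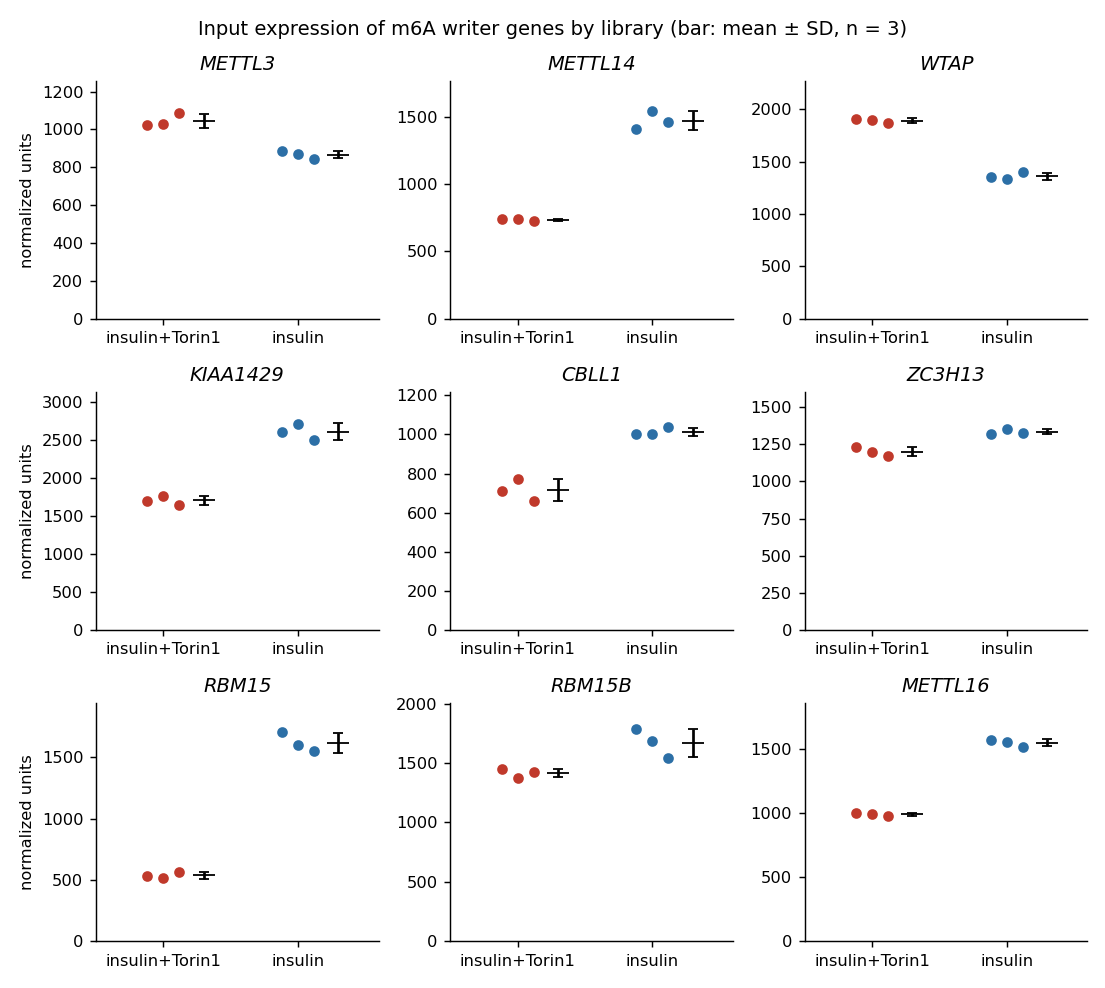
Normalized units of each writer gene in every input library (points) with the mean and SD of each treatment (bars, n = 3), insulin+Torin1 on the left and insulin on the right, from 0 on a separate linear axis for each gene. RBM15 lies between 510 and 565 units with Torin1 and between 1551 and 1706 with insulin, while METTL3 and WTAP are the genes whose Torin1 points lie above the insulin points.

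A ratio of genes within a library does not depend on a factor that scales all genes of that library alike. Quantile normalization is not such a factor and can change the ratio. The values are not per length, so only the difference of a ratio between treatments is read and not the ratio itself. The log2 ratio of METTL14 to METTL3 was -0.46, -0.48 and -0.58 in the Torin1 libraries and 0.67, 0.83 and 0.79 in the insulin libraries. The groups did not overlap, and the difference was -1.27. The log2 ratio of RBM15 to METTL3 was -0.94, -1.01 and -0.95 with Torin1 and 0.94, 0.88 and 0.88 with insulin, a difference of -1.86 and the largest of the 8 genes. WTAP kept closest to METTL3, with a mean log2 ratio of 0.85 ± 0.07 with Torin1 and 0.65 ± 0.06 with insulin (SD, n = 3 each). The difference was -0.42 for ZC3H13, -0.51 for RBM15B, -0.78 for CBLL1, -0.88 for KIAA1429 and -0.91 for METTL16. Relative to METTL3, 7 of the 8 other genes were lower with Torin1 and WTAP was higher, with no overlap between treatments for any of them. METTL3 itself rose, and 59.3% of all tested genes had a lower log2 fold change than METTL3. A fall relative to METTL3 was thus common in the whole table. Overlap of such ratios was not counted over all genes. Between the paralogues, the log2 ratio of RBM15 to RBM15B averaged -1.40 ± 0.06 with Torin1 and -0.04 ± 0.04 with insulin.

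**Figure D2:**
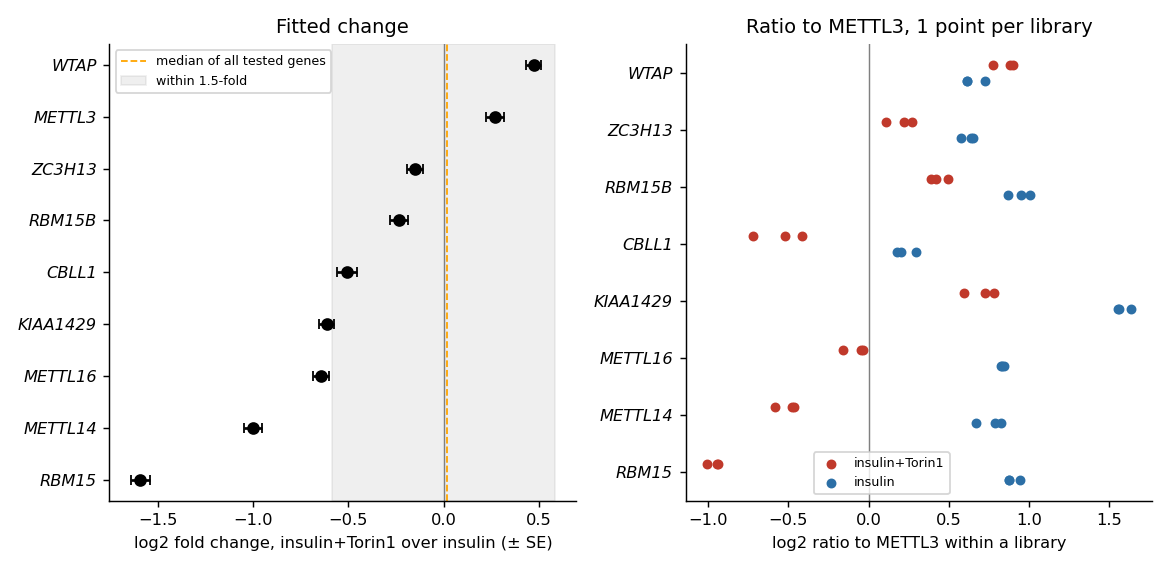
Left, log2 fold change of insulin+Torin1 over insulin for each writer gene (points, bars ± SE from limma), with the median of all tested genes (dashed) and the range within 1.5-fold (grey); right, log2 ratio to METTL3 in each library, insulin+Torin1 in red above insulin in blue. RBM15 and METTL14 lie farthest left at -1.59 and -0.999, and no gene's ratios overlap between treatments. METTL16 and KIAA1429 lie just past the grey band without passing the 1.5-fold test, and RBM15B and ZC3H13 lie inside it. Values at equal totals and after quantile normalization are not drawn. In both, METTL16 and KIAA1429 were within 1.5-fold, and RBM15B and ZC3H13 were above 0 after quantile normalization.

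The starts of the catalytic pair and of the RBM15 paralogues are shown because the members of each pair moved unequally. The 250 nt before the annotated start are printed from RefSeq (GRCh38.p14), 5′ to 3′ on the gene strand. Capitals mark CACGTG (the E-box that MYC, MAX and USF proteins bind) and CCAAT or its reverse complement ATTGG (bound by NF-Y). Both motifs were chosen after the RBM15 sequence was seen. The windows are RBM15 at chr1:110339127-110339376 on the plus strand, RBM15B at chr3:51391035-51391284 on the plus strand, METTL14 at chr4:118685142-118685391 on the plus strand and METTL3 at chr14:21511341-21511590 on the minus strand.
RBM15: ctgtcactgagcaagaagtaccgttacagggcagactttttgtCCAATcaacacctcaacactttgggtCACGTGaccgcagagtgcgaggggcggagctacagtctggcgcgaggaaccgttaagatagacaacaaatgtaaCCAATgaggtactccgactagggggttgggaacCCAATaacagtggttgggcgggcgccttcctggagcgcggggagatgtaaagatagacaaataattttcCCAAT
RBM15B: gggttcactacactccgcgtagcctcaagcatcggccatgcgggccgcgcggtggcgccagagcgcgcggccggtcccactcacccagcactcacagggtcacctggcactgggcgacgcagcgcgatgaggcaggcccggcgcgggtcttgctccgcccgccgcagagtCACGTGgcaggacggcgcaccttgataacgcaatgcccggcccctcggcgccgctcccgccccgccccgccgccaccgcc
METTL14: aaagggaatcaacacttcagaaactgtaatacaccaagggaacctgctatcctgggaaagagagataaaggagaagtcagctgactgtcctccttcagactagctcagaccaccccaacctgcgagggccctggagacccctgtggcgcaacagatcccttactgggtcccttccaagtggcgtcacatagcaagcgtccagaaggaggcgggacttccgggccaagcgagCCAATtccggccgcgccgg
METTL3: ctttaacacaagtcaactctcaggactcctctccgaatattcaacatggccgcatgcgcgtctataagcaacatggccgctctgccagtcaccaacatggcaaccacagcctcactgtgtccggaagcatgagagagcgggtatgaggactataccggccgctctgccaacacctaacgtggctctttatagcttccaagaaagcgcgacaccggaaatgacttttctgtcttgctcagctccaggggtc

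Searched on both strands, CACGTG was present in 6.31% of the 34788 promoter windows of this length and CCAAT in 32.0%. The RBM15 window held 1 CACGTG, 181 nt before the start, and 4 CCAAT matches at 207, 107, 74 and 5 nt before it, where 2.92% of all windows held 3 or more. RBM15B held 1 CACGTG at 80 nt and 0 CCAAT, METTL14 held 1 CCAAT at 19 nt, and METTL3 held neither. WTAP, CBLL1, ZC3H13 and METTL16 held 1 CCAAT each and no CACGTG, with a second WTAP window holding neither. Of the 9 genes 8 were in the promoter table. The matches describe these letters and do not show binding.

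Neighbouring genes share sequence with some writer genes, and whether reads were counted by strand is not given in the sources used here. The annotated body of SOD2, a mitochondrial superoxide dismutase gene on the opposite strand, covers all 29627 nt of WTAP. SOD2 had 2508, 2448 and 2369 units with Torin1, against 3583, 3772 and 3587 with insulin, and so moved the other way from WTAP, with a log2 fold change of -0.58. TOX4 overlaps METTL3 by 1033 nt and had a log2 fold change of -1.37, also opposite to METTL3. DCAF1 (VPRBP in the table) overlaps RBM15B by 2042 nt and had a log2 fold change of -0.73. Unless reads were counted by strand, those of these genes and of WTAP, METTL3 and RBM15B cannot be told apart in the overlaps.

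The tested genes whose log2 profiles over the 6 libraries lay near to METTL3 included TLN1 and CANT1, at distances of 0.030 and 0.036. Those near to METTL14 included USF2 and HNRNPF, at 0.026 and 0.032. Those near to WTAP included EPB41L2 and ATP5G3, at 0.027 and 0.033. The distance is Euclidean, after subtracting each gene's own mean, and is a description over 2 treatments.

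The genes that erase or read m6A were also mixed. Of 13 tested, 4 rose, 8 fell and 1, IGF2BP2, was not called (limma adjusted p = 0.43), with a median log2 fold change of -0.28. Over all tested genes 43.4% were higher and 42.5% lower, with a median of 0.02. The largest falls were those of the demethylase ALKBH5, at -1.58, and of YTHDF2, a reader that promotes mRNA decay, at -0.85. The largest rises were those of the reader HNRNPA2B1, at 0.88, and of the demethylase FTO, at 0.81. Of 13 genes for other RNA methyltransferases, their partners and MAT2A, 4 rose and 9 fell, with a median of -0.39, beside the same shares over all tested genes. MAT2A, which encodes the enzyme that makes the methyl donor S-adenosylmethionine and is a METTL16 target, was at -1.46 and METTL4 at -1.05. METTL8 was at 1.71 and ZCCHC4, the methyltransferase of 28S rRNA, at 1.62.

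All 9 writer genes carried listed m6A sites of their own, at 208 positions in either list. At least 1 site was held by 10176 of the 15844 protein-coding genes with an annotated position and strand. The paralogues RBM15 and RBM15B held the most, with 43 and 42 positions that together made up 40.9% of all positions in writer genes. RBM15 held more positions than 98.5% and RBM15B more than 98.3% of the 10176 protein-coding genes with a site, at 5.89 and 6.34 positions per kb of gene body. METTL3 held 4 positions, WTAP 25, KIAA1429 24, ZC3H13 23, CBLL1 17, and METTL14 and METTL16 15 each. Gene bodies include introns, which differ in length between these genes.

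There was 1 list per condition, so site numbers have no replicate test, and the total depth of the miCLIP libraries is unknown. Each position was listed under 1 of the 3 replicates. With Torin1, 105 sites of writer genes were listed under replicate 1, 2 under replicate 2 and 6 under replicate 3. With insulin the numbers were 98, 57 and 5. The same imbalance held for all sites, with 56298, 1552 and 5728 with Torin1 and 50656, 39670 and 6345 with insulin. Of 8 writer genes with at least 10 sites, 3 (RBM15, RBM15B and ZC3H13) had more than 1.5-fold fewer sites with Torin1 and 0 had more than 1.5-fold more, where 49.8% and 9.03% of 4164 such genes did. Among sites listed under replicate 1, 0 of 8 were lower and 3 (METTL14, METTL16 and KIAA1429) were higher, against 23.3% and 28.0% of 2821 genes. The counts of genes past 1.5-fold thus turned with the replicate of listing, but not every gene did. Under replicate 1, RBM15 had 24 sites with Torin1 and 30 with insulin, and RBM15B 21 and 23, still fewer with Torin1. ZC3H13 had 8 in each. METTL14, with 8 and 3, and METTL16, with 7 and 4, turned.

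**Figure D3:**
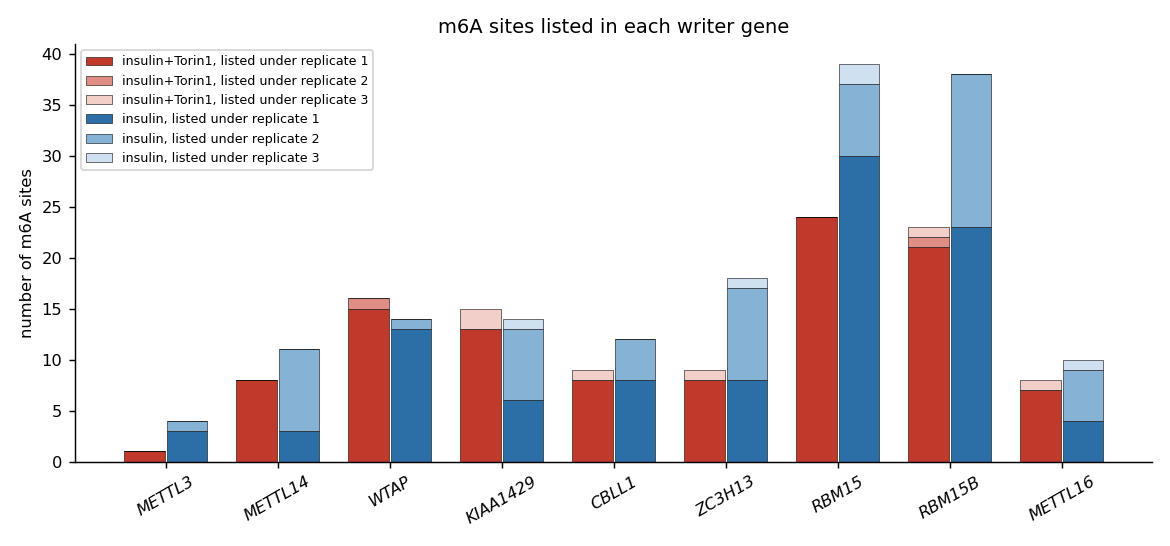
Number of m6A sites listed in each writer gene, insulin+Torin1 in red on the left of each pair and insulin in blue on the right, with shades for the replicate under which a site was listed. RBM15 and RBM15B carry the tallest bars, with 24 and 23 sites with Torin1 and 39 and 38 with insulin, and most of the difference in RBM15B lies in 15 insulin sites listed under replicate 2.

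In RBM15 (chromosome 1, 110339377 to 110346677, plus strand) 24 sites were listed with Torin1 and 39 with insulin. Most lay in a run 216 to 3316 nt from the annotated start, 19 of 24 with Torin1 and 36 of 39 with insulin, a run being positions of either list no more than 1000 nt apart. Exon boundaries were not used here. The site with the most substituted reads in both lists was agAca at position 110342143, with the methylated adenosine in capitals as in all 5-mers that follow. There 7 of 42 reads were substituted with Torin1, which is 16.7% (Wilson 95% interval 8.32 to 30.6), against 12 of 30 with insulin, which is 40.0% (24.6 to 57.7). These intervals overlap, and all such intervals cover counting error only. In RBM15B (chromosome 3, 51391285 to 51397908, plus strand) 23 sites were listed with Torin1 and 38 with insulin. The run from 137 to 2940 nt held 23 of 23 Torin1 sites and 34 of 38 insulin sites. At ggAcc, position 51393050, 19 of 234 reads were substituted with Torin1, or 8.12% (5.26 to 12.3), against 16 of 89 with insulin, or 18.0% (11.4 to 27.2).

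WTAP (chromosome 6, 159726693 to 159756319, plus strand) had similar totals, 16 sites with Torin1 and 14 with insulin, at different places. In the run from 21647 to 22452 nt from the start, 11 sites were listed with Torin1, with 9 to 141 reads over them and a median of 82. The insulin list had 1 site there, with 13 reads. In the run from 28336 to 28884 nt, towards the annotated end, 5 sites were listed with Torin1, with 30 to 105 reads over them, and 11 with insulin, with 1 to 51 reads. Replicate 1 listed 10 of the 11 upstream Torin1 sites and all 5 of the downstream ones, so the upstream difference rests almost wholly on 1 library. The leading WTAP site was ggAct at position 159748891 with Torin1, with 4 of 91 reads substituted, and ggAct at position 159755577 with insulin, with 3 of 40. The site shared upstream, agAct at position 159748397, had 94 reads with Torin1 and 13 with insulin, a ratio of 7.23 that 1.37% of 9494 shared replicate 1 sites exceeded. At the 4 shared downstream sites the ratio was 0.968 to 2.29. The runs of WTAP were singled out after the sites were seen and have no replicate check.

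METTL14 (chromosome 4, 118685392 to 118715430, plus strand) had all of its 8 Torin1 sites and 11 insulin sites in 1 run, 24656 to 25860 nt from the start. Its leading site was agAct at position 118710113 with Torin1, with 4 of 50 reads substituted, and tgAct at position 118710087 with insulin, with 4 of 34. METTL3 (chromosome 14, 21498138 to 21511340, minus strand) had 1 site with Torin1 and 4 with insulin. At the shared METTL3 site, ggAct at position 21503348, 5 of 43 reads were substituted with Torin1, or 11.6% (5.07 to 24.5), and 2 of 17 with insulin, or 11.8% (3.29 to 34.3). The fraction at this site was nearly equal, on more reads with Torin1.

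**Figure D4:**
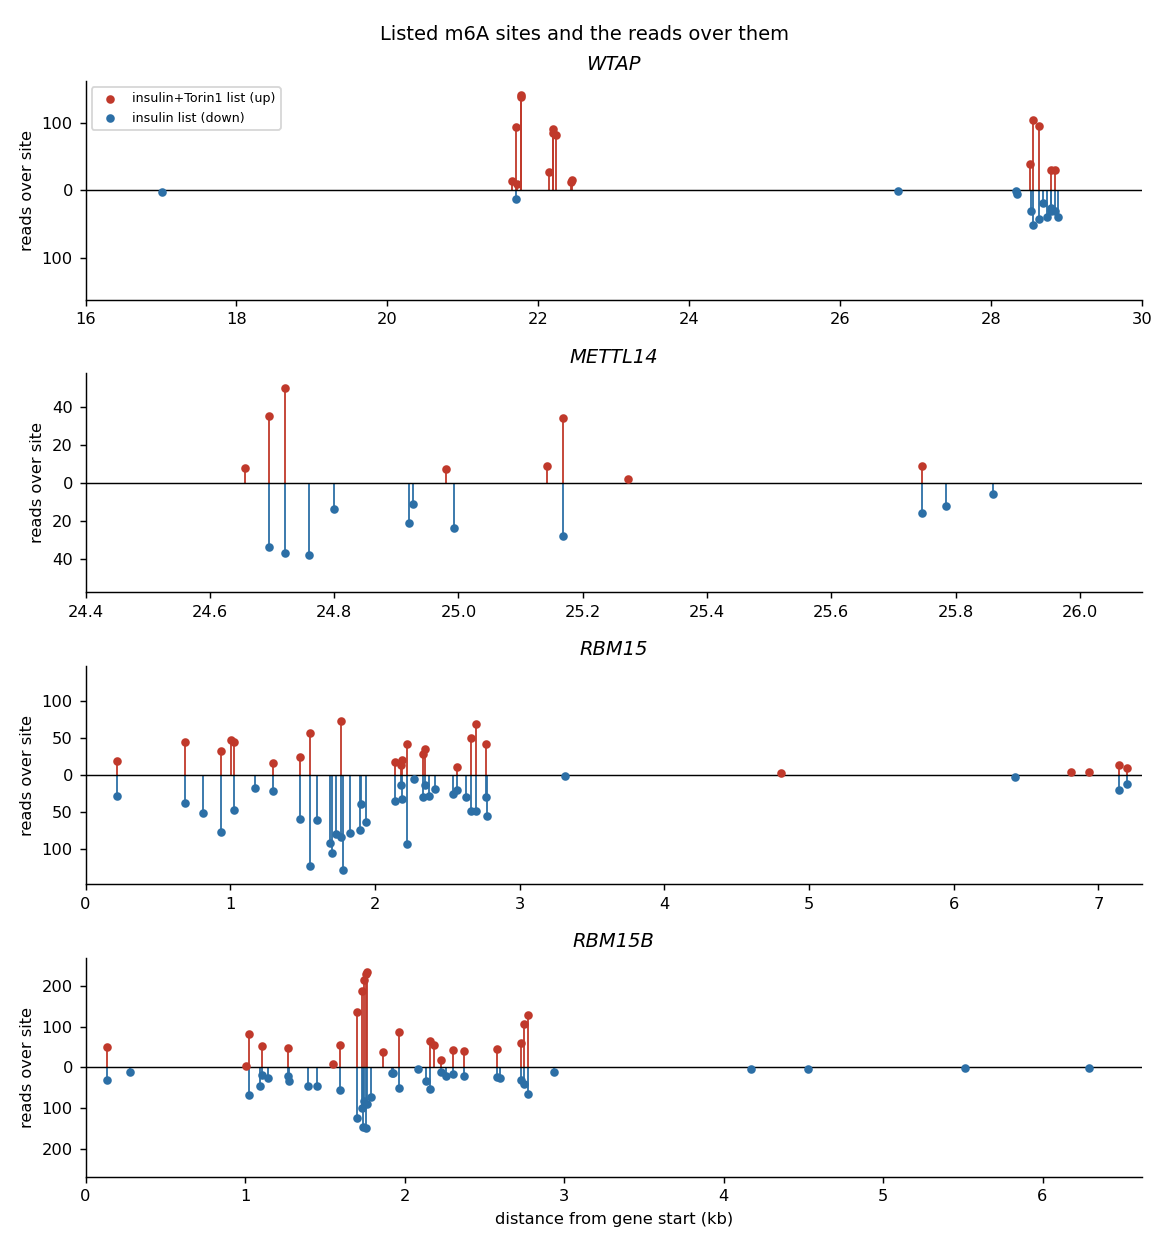
Reads over each listed m6A site against its distance from the gene start in kb, for WTAP, METTL14, RBM15 and RBM15B, with insulin+Torin1 drawn upwards in red and insulin downwards in blue. In WTAP the 11 Torin1 sites near 22 kb face 1 insulin site, while in RBM15 and RBM15B most sites of both lists lie in the first 3 kb.

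Sites of CBLL1, ZC3H13, METTL16 and KIAA1429 follow. CBLL1 (chromosome 7, 107744142 to 107761667, plus strand) had 9 sites with Torin1 and 12 with insulin, of which 8 with Torin1 and 11 with insulin lay 14083 to 15904 nt from the start. Its leading site was gaAcc at position 107758623 with Torin1, with 3 of 24 reads substituted, and taAct at position 107758982 with insulin, with 4 of 22. ZC3H13 (chromosome 13, 45954465 to 46052746, minus strand) had 9 sites with Torin1 and 18 with insulin, and 8 in each list under replicate 1. Its leading site was ggAca at position 45969553 with Torin1, with 2 of 10 reads substituted, and agAca at position 45985593 with insulin, with 4 of 15. METTL16 (chromosome 17, 2415715 to 2511888, minus strand) had 8 sites with Torin1 and 10 with insulin, all 91399 nt or more from its start. Its leading site with Torin1 was ggAct at position 2419673, with 3 of 12 reads substituted, or 25.0% (8.89 to 53.2), against 1 of 6 with insulin, or 16.7% (3.01 to 56.4). Its leading site with insulin went the other way. At gaAct, position 2420396, 1 of 29 METTL16 reads was substituted with Torin1, or 3.45% (0.611 to 17.2), against 7 of 29 with insulin, or 24.1% (12.2 to 42.1). KIAA1429 had 15 sites with Torin1 and 14 with insulin, and 7 of each lay 26168 to 27014 nt from the start. Its leading site lay 34270 nt from the start with Torin1, with 5 of 74 reads substituted, and 26980 nt from it with insulin, with 3 of 16. Its strand was taken from most of its sites.

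Of the writer gene sites, 65 were in both lists. That is 57.5% of the Torin1 sites (Wilson 95% interval 48.3 to 66.2) and 40.6% of the insulin sites (33.3 to 48.4), where the shares over all sites were 43.1% with Torin1 and 28.3% with insulin. RBM15 contributed 20 of these sites and RBM15B 19. Among sites with at least 10 reads the shares in writer genes were 68.7% with Torin1 and 50% with insulin, against 46.3% and 38.7% of all such sites in those lists. Among sites with at least 3 substituted reads they were 35.7% with Torin1 and 21.3% with insulin, against 31.5% and 23.95% of all such sites in those lists, so the insulin share was then below that of all sites. Without Torin1 replicate 1 the Torin1 share was 12.5% of 8 sites in writer genes, against 33.6% of all sites. Whether the share is particular to writer genes was not tested.

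Reads over shared sites followed different courses in the paralogues. Over the 9494 sites of all genes that replicate 1 listed in both conditions, with at least 10 reads in each, the median log2 ratio of reads with Torin1 to reads with insulin was 0.76. More reads with Torin1 were seen at 77.6% of these sites. In RBM15 all 16 such sites lay below that median, and 12 had fewer and 4 had more reads with Torin1, at ratios of 0.407 to 1.41. The median log2 ratio was -0.33, beside an input log2 fold change of -1.59. In RBM15B all 13 sites had more reads with Torin1, at ratios of 1.21 to 2.89 and a median log2 ratio of 1.00, beside an input log2 fold change of -0.23 that was 0.02 after quantile normalization. The sites of a gene share reads and 1 library per condition, so they are not independent.

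**Figure D5:**
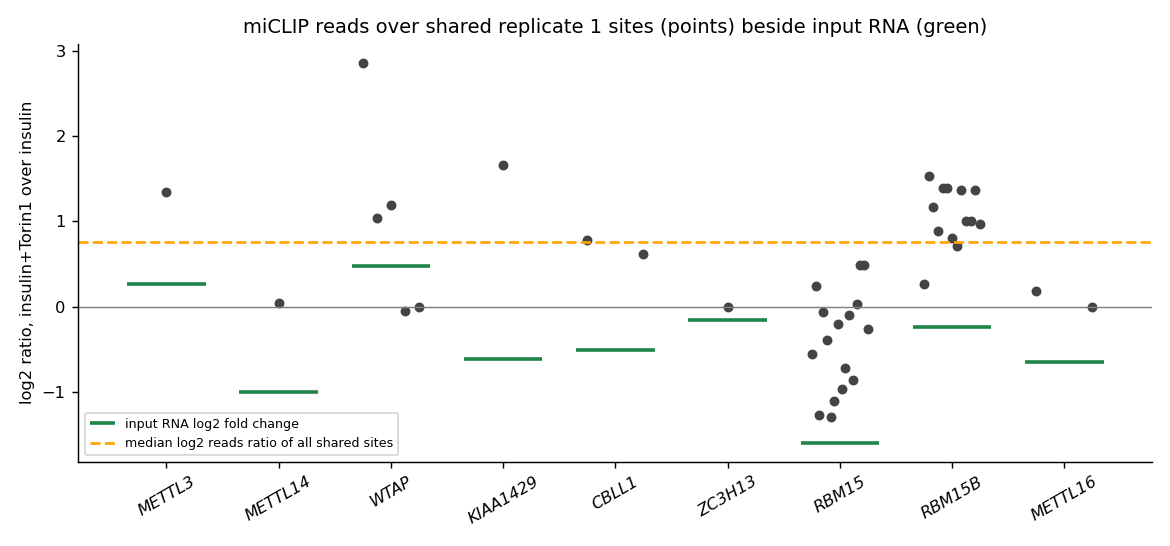
Log2 ratio of miCLIP reads, insulin+Torin1 over insulin, at each site that replicate 1 listed in both conditions with at least 10 reads (points), beside the gene's input RNA log2 fold change (green bars) and the median ratio over all shared sites (dashed, 0.76). All 16 RBM15 points lie below the dashed line, and all 13 RBM15B points lie above 0, as do 77.6% of all shared sites. The green bars of RBM15B and ZC3H13 lie below 0 as drawn. Their log2 fold changes after quantile normalization, which are not drawn, were above 0.

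The fraction of substituted reads could be compared at 57 shared sites of writer genes with at least 10 reads in each list. Its median was 4.88% with Torin1 and 8.51% with insulin, with 16 sites higher, 40 lower and 1 equal. Over all 13325 such sites the medians were 4.65% with Torin1 and 7.41% with insulin, with 3875 higher and 9302 lower, the same direction. Median reads over these sites were 44 with Torin1 and 31 with insulin in writer genes, and 46 and 28 over all genes. Every writer gene site held at least 1 substituted read, so its fraction cannot lie below 1 over its reads. More reads thus allow lower fractions, and whether the lower fractions mean less methylation was not tested. For 0 of the 57 sites were the Wilson intervals apart, which was not counted over all 13325 sites. With few reads per site, overlapping intervals do not show that the fractions were equal. RBM15B had 3 of 19 sites higher and 16 lower, with medians of 2.50% with Torin1 and 7.32% with insulin. At the 13 of these that replicate 1 listed in both conditions the medians were 4.88% with Torin1 and 7.32% with insulin. RBM15 had 8 of 20 sites higher and 12 lower, with medians of 7.14% with Torin1 and 8.34% with insulin. Median reads were 66 with Torin1 and 50 with insulin at the 19 RBM15B sites, and 30 and 34 at the 20 RBM15 sites. A rise was seen at RBM15B position 51392556, gaAcc, where 11 of 47 reads were substituted with Torin1, or 23.4% (13.6 to 37.2), and 2 of 21 with insulin, or 9.52% (2.65 to 28.9). Sites that rest on 1 substituted read were 59.3% of the writer gene sites with Torin1 and 45.6% with insulin. The same shares over all sites are not given, so this difference is not read as particular to writer genes.

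Among the 5-mers at writer gene sites, those that begin with AGAC made up 65 of 208 positions, 31.3% (Wilson 95% interval 25.3 to 37.8), against 18.9% of all 132871 positions, and GGAC made up 25.5% against 30.9%. The AGAC share was above that of all positions in 7 of the 9 genes and was 52.2% of 23 positions in ZC3H13, 32.6% of 43 in RBM15 and 31.0% of 42 in RBM15B. It was 0 of 4 in METTL3 and 13.3% of 15 in METTL16. The GGAC share was above that of all positions in RBM15B, at 38.1%, and in ZC3H13, at 34.8%, and RBM15B held more GGAC than AGAC. Positions of 1 gene share its base composition, so the share is given as a description.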

How the data were processed

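Input RNA-seq and miCLIP were analysed in 12 samples, 4 groups of 3, grouped by their titles. The submitters' processing notes name BWA 0.7.1, DESeq2 1.22.2, DESeq, STAR and hg38 with no step given. The authors deposited expression as whole numbers that they had normalized between libraries and rounded, as the regular gaps between values show, and these were treated as a score, not as counts. The authors deposited 1 site list per condition, with the reads over each site, the substituted reads and their fraction, per the values in the file.

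limma 3.58.1 (R 4.3.3), with a variance trend, was fitted on log2(value + 1) to the 13842 genes that reached a minimum value of 10 in 3 or more libraries. Calls used two-sided Benjamini-Hochberg adjusted p under 0.05 over all of them, and limma's treat asked for a change beyond 1.5-fold. The pseudocount understates changes of low genes. Site stretches are runs of positions at most 1000 nt apart. The fit and the site matching were tested on simulated data. Sites were assigned by RefSeq gene bodies of GRCh38.p14. Named sites are those with the most substituted reads per gene and list and, among sites in both lists with at least 10 reads in each, examples chosen after their values were seen, the rest of these being summarised by gene, and nearest genes and list genes followed fixed rules on distance and size of change. For METTL3, METTL14 and WTAP, 1 of the 3 nearest genes each is not reported here. The members, lists, rules and alternatives were chosen with earlier results of these data known.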

Additional observations from a re-analysis of the deposited data

Results flagged for a closer look

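RBM15 had 7 m6A sites listed on the strand opposite to the gene with insulin and 0 with Torin1. They lay outside the sites described above, which are on the gene strand, and the insulin list is the longer one. What these sites come from was not tested.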

How the results depend on the processing

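The call of 2 writer genes higher held under all 12 alternatives, and 7 genes were lower in all of them except scaling to equal totals (6 lower) and quantile normalization (5 lower). ZC3H13 had a log2 fold change of -0.03 (limma adjusted p = 0.55) at equal totals and 0.066 (limma adjusted p = 0.14) after quantile normalization, and RBM15B had 0.020 (limma adjusted p = 0.69) after quantile normalization. Equal totals moved the median over all genes to 0.15, with 6680 genes higher and 5245 lower, against 6010 and 5888. With the replicate number as a block 5983 genes were higher and 5867 lower, and no call of a writer gene changed. Same-numbered libraries did not deviate together (correlations of -0.023, 0.010 and -0.0040), so the numbers were not taken as pairs. All 56 alternatives of the ratios to METTL3, whose leave-one-out ones were added after the data were seen, kept direction and size. Quantile normalization was not among these alternatives.

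The ratio of site numbers, Torin1 over insulin, was 0.706. It was 1.07 with replicate 1 of both lists, 0.05 to 1.82 when 1 replicate of a list was left out, 0.05 without Torin1 replicate 1, 1.82 without insulin replicate 1 and 1.10 without insulin replicate 2. Left-out replicates gave 8 to 113 Torin1 sites and 62 to 160 insulin sites (103 without insulin replicate 2), and replicate 1 alone gave 98 insulin sites. With at least 3 substituted reads there were 28 Torin1 sites and 47 insulin sites. The shared percentage of Torin1 sites was 42.9 with replicate 1, 35.7 with at least 3 substituted reads, 68.7 with at least 10 reads and 12.5 to 59.8 over left-out replicates (17.7 without insulin replicate 1, 41.6 without insulin replicate 2). That of insulin sites was 21.3 with at least 3 substituted reads, 50 with at least 10 reads and 0.625 to 45.6 over left-out replicates (32.3 without insulin replicate 1). The cause was not tested. Counting sites within 2 nt as shared changed nothing. Few reads limit each fraction, and the dominance of replicate 1 limits every statement on sites.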
